A study of Mus musculus with 2 samples.

Results

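Open chromatin that lies away from every annotated gene start and yet has the base composition of a CpG island was found at 2205 places in the embryonic mouse face. They are 1.57% of the 140271 distal open sites and belong to a catalogue of 177440 sites seen in both replicates of a DNase-seq experiment. A site counted when a peak of one replicate overlapped a peak of the other, the merged interval lay over 1 kb from every transcription start site (TSS) of the basic GENCODE M21 annotation, and the 500 bp around its midpoint in mm10 had at least 55% G and C and a CpG observed/expected ratio of at least 0.6. That ratio is the number of CpG dinucleotides divided by the number that the C and G content alone would give. These criteria use sequence, position and the presence of a peak in both replicates, and no peak strength.

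The tissue was the facial prominence of healthy B6NCrl mouse embryos at embryonic day 14.5, with male and female embryos pooled, as 2 biological replicates of 1 group. There is no second condition, so the comparisons are between classes of sites within each replicate, each replicate is given separately, and no significance test across conditions was possible. DNase-seq maps DNA that the nuclease can cut in nuclei. The authors deposited, per replicate, a list of peaks of 150 bp with a score of 1 to 150, and a list of hotspots, which are wider regions of raised cutting. A face at this stage mixes mesenchyme, epithelium, cartilage, muscle, nerve and vessels, and in such a bulk sample a region open in few cells and a region weakly open in many cannot be told apart.

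CpG dinucleotides are rare in most of the mammalian genome because methylated cytosine mutates readily to thymine. CpG islands are stretches that have kept them, mostly because they stay unmethylated, and the majority lie at promoters. Those away from annotated promoters are often called orphan islands, and some are promoters of unannotated transcripts or parts of enhancers. Unmethylated CpG is bound by proteins with a CXXC zinc finger such as KDM2B, which brings Polycomb complexes to islands of silent developmental genes.

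The sequences of 8 sites and 2 contrasts show what the sequence criteria select. They are plus-strand mm10 sequence, 5′ to 3′, in lower case with every CpG in capitals. The first pair are, among the strongest sites of the class, the leading intergenic ones over 1 kb from a TSS in GENCODE and RefSeq. The next 3 lie among the sites farthest from any TSS of the basic annotation, the following pair lie in coding exons among the sites richest in CpG, and the eighth is just inside the GC threshold. The last 2 are a distal site just under both thresholds with one of the highest scores (145 and 137), and the centre of a CpG-island-like stretch with no peak or hotspot.
Upstream of Nr4a1, chr15:101246356-101246505: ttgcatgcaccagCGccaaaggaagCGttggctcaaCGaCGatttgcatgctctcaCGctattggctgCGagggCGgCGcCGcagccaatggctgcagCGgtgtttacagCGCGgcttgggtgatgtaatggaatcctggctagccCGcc
Upstream of Igf2bp3, chr6:49218036-49218185: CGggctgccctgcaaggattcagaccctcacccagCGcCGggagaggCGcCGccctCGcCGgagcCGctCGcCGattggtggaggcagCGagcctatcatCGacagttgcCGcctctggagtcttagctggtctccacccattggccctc
Upstream of Eya1, chr1:14506616-14506765: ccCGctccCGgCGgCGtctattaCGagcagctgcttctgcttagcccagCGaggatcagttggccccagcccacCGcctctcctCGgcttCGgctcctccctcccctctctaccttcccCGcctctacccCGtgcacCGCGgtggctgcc
Nearest to Tfap2c, chr2:172728256-172728425: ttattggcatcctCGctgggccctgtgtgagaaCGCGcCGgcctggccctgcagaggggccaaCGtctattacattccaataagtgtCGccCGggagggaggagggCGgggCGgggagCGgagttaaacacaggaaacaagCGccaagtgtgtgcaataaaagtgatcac
Intron of Rims1, chr1:22533176-22533325: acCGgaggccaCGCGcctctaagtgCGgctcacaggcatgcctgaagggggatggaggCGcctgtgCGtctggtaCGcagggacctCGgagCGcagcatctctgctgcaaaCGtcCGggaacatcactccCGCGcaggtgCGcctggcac
Coding exon of Klhl35, chr7:99468596-99468745: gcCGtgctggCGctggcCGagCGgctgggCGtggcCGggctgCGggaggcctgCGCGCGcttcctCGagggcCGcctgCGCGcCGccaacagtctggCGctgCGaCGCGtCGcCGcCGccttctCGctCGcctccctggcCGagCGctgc
Coding exon of Dact3, with Gng8 as the nearest protein-coding TSS, chr7:16885356-16885525: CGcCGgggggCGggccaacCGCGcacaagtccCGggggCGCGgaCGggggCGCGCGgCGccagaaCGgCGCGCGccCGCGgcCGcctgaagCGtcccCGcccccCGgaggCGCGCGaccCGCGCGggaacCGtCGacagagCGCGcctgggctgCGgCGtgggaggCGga
Intron of Cd80, just inside the GC threshold, chr16:38476556-38476725: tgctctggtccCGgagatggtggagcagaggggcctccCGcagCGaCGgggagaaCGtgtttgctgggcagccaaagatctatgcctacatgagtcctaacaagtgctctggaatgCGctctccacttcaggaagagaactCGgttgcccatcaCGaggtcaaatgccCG
Nearest to Ssc4d, just outside both thresholds, chr5:135957656-135957805: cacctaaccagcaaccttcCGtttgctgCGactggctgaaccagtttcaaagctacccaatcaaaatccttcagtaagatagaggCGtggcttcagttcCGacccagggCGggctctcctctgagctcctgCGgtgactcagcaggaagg
Coding exon of Plec, no peak or hotspot, chr15:76180101-76180250: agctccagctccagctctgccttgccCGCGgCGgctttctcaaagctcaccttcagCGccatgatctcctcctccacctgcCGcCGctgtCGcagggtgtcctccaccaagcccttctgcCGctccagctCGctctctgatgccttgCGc
The printed Klhl35 run holds 26 CpG in 150 bases and that of Dact3 36 in 170 bases, against 6 in 150 bases for Ssc4d. The Plec run holds 10 CpG, and no region was called there in either replicate.

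The CpG-island-like distal sites were stronger than the other 138066 distal sites in both replicates. The median score was 82 in replicate 1 (quartiles 61 and 108) and 68 in replicate 2 (49 and 95), against 60 (46 and 76) and 37 (28 and 52) for the other distal sites. The difference between the medians averaged 26.5 ± 6.36 score units (SD, n = 2 replicates), an average over 2 score scales that may differ. Sites of the same composition within 1 kb of a TSS were stronger still, with medians of 108 and 97. The distributions overlap: the lower quartile of the CpG-island-like sites, 61 in replicate 1, is about the median of the rest.

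The class was most distinct at the top of the range. A score at or above the 90th percentile of distal sites, which was 93 in replicate 1 and 71 in replicate 2, was reached by 39.3% of the CpG-island-like sites (exact 95% interval 37.3 to 41.4%) and 47.1% (45.02 to 49.2%), against 10.2% and 10.1% of all distal sites. Scores of 100 or more were held by 32.2% and 20.3% of them, against 5.91% and 0.882% of other distal sites. They also sat in wider hotspots, median 645 bp and 566 bp, against 309 bp and 247 bp. A hotspot of 1000 bp or more held 28.2% and 25.2% of the CpG-island-like sites, against 3.38% and 1.70% of the others. The hotspot value, a −log10 q-value with a ceiling of 100, was at that ceiling for 71.9% and 64.3% of them, against 50.2% and 31.0%. Among the sites named here the values below the ceiling were at most 6, so 100 was not read as a q-value of that size. The intervals here cover counting error only, and neighbouring sites are not independent: joined within 1000 bp, the 2205 sites formed 1790 loci, of which 1459 held 1 site, 62 held 3 or more and the largest held 8.

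**Figure D1:**
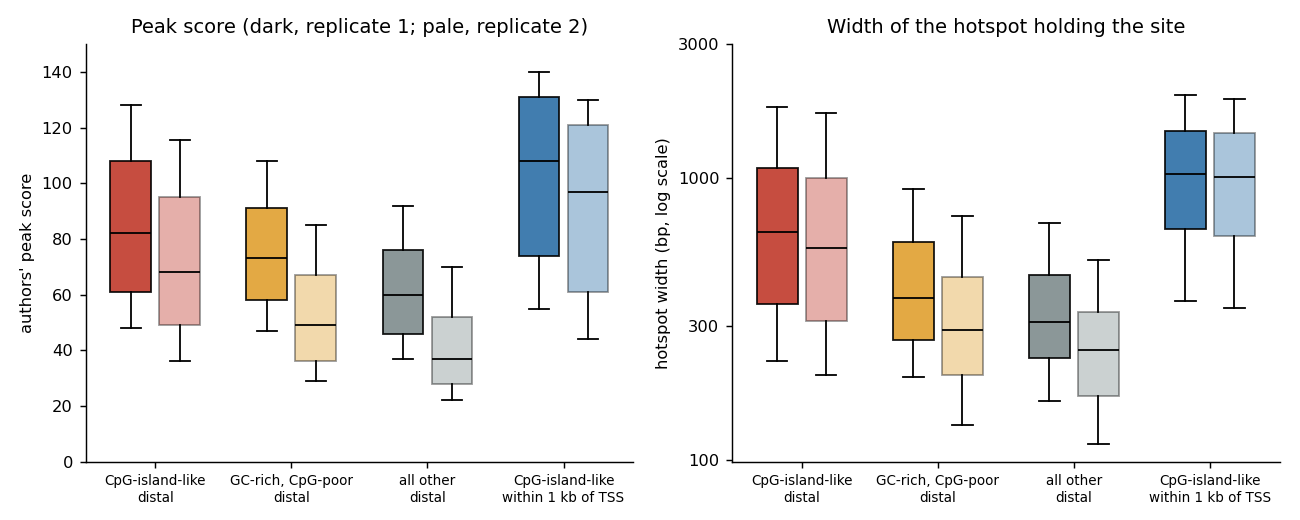
Authors' peak score (left) and width in bp, on a log scale, of the hotspot holding the site (right) for 4 classes of shared sites, with boxes from the lower to the upper quartile, a line at the median and whiskers from the 10th to the 90th percentile. The CpG-island-like distal boxes, with medians of 82 and 68, lie between the other distal sites and the CpG-island-like sites near a TSS in both replicates, and the GC-rich, CpG-poor class is a subset of the other distal sites.

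GC-rich distal sites without CpG-island composition were intermediate. The 10650 distal sites with at least 55% GC but a CpG ratio under 0.6 had median scores of 73 and 49, between the CpG-island-like sites and the other distal sites. Within the band of 55 to 60% GC, the medians were 71 and 45 at a CpG ratio under 0.2 (n = 3015), 76 and 57 at 0.4 to 0.6 (n = 1508) and 84 and 66 at 0.6 to 0.8 (n = 490). Within 60 to 65% GC the replicate 1 median did not order with CpG, at 80 for a ratio under 0.2 (n = 244) and 82 for 0.8 or more (n = 212), while replicate 2 had 51 and 69 and the replicate 1 hotspots were 423 bp and 642.5 bp wide. The replicate 2 hotspots were 312.5 bp and 607 bp wide. In that band a higher CpG ratio thus went with wider hotspots in both replicates and with a higher median score in replicate 2. The difference in score between replicates was not tested. Within the class the medians varied little with either property: the median scores were 82 and 65 at a ratio of 0.6 to 0.7 (n = 798) and 81 and 70 at 0.9 or more (n = 353), and 84 and 67 at 55 to 60% GC (n = 601) and 81 and 70.5 at 70% GC or more (n = 330).

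The thresholds cut through a continuum. The 102 sites within 1 percentage point above the GC threshold had median scores of 79.5 and 65.5, and the 110 within 1 point below it had 70 and 57. The 397 sites within 0.05 above the CpG threshold had 81 and 64, and the 466 within 0.05 below it 79 and 64. Just inside stood an intronic site of Cd80, a costimulatory molecule of immune cells, with 55% GC and scores of 59 and 51, and one of Gria2, a glutamate receptor subunit, with a ratio of 0.6001 and scores of 53 and 42. Just outside stood an intronic site of Igfbp5, a binding protein of insulin-like growth factors, with 54.8% GC and scores of 69 and 52, and a site nearest to En1, a homeobox gene, with 54.8% GC and scores of 64 and 42.

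**Figure D2:**
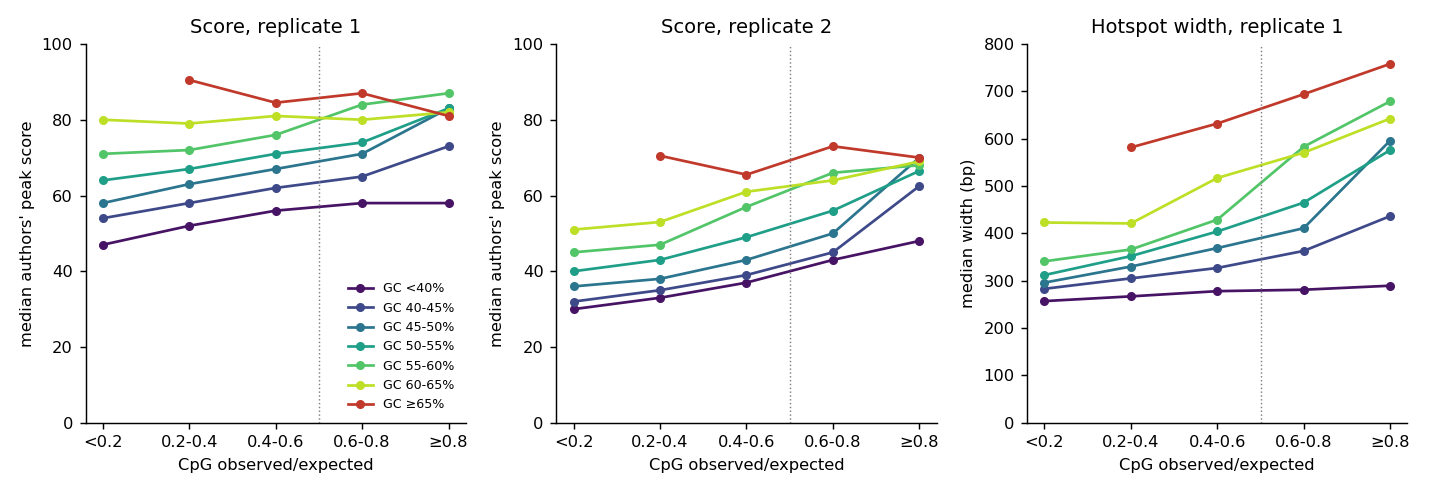
Median authors' peak score in replicate 1 (left) and replicate 2 (middle) and median hotspot width in bp in replicate 1 (right) of all distal sites, by bins of the CpG observed/expected ratio (x axis) and of GC content (lines). The dotted line marks the ratio of 0.6; at 55 to 60% GC the replicate 1 median was 84 just above it and 76 just below it, while at 60 to 65% GC it stayed at 79 to 82 and at 65% GC or more it was 90.5 in the lowest bin drawn and 81 in the highest. Hotspot width was greater at the higher ratios, at 642.5 bp against 423 bp for 60 to 65% GC.

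Although all lay beyond 1 kb, the sites were close to gene starts. The median distance to the nearest TSS was 4172 bp, against 18392 bp for other distal sites, and 30.1% lay at 1000 to 2000 bp, against 6.16%. Within the class, strength varied little with distance up to 100000 bp. The median scores were 82 and 66 at 1000 to 2000 bp (n = 664), 88 and 72 at 5000 to 10000 bp (n = 385), 81 and 67 at 10000 to 50000 bp (n = 525) and 85 and 69.5 at 50000 to 100000 bp (n = 72). Beyond 100000 bp there were 14 sites, with medians of 69 and 55. Relative to the nearest protein-coding TSS, 62.0% lay downstream, against 62.7% of the GC-rich, CpG-poor distal sites described above and 56.3% of all other distal sites.

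Other annotations place a TSS at many of them. In the comprehensive GENCODE M21 set 25.4% lay within 1 kb of a TSS, against 3.54% of other distal sites, and in RefSeq 29.98%, against 4.16%. Curated RefSeq transcripts accounted for 229 sites, comprehensive GENCODE transcripts for a further 424 and predicted RefSeq transcripts for the last 246. The remaining 1306 sites (59.2%) were beyond 1 kb of a TSS in all 3 sets, against 93.2% of other distal sites, with median scores of 81 (quartiles 60 and 106) and 66 (47.25 and 92). The sites at a curated RefSeq TSS had 91 (62 and 118) and 75 (51 and 105), so the classes overlap widely. A further overlap was with promoter islands themselves: 413 sites (18.7%) lay on a CpG-island-like stretch that continued into a promoter window of 500 bp, with medians of 79 and 63, and 8.07% shared a replicate 1 hotspot with a promoter window. Leaving out all of these left 1099 sites (49.8%) with no start site, promoter stretch or promoter hotspot, and they had medians of 81 and 67 at a median distance of 6384 bp.

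Many of the sites lay in protein-coding sequence. The midpoint fell in a coding exon for 484 of the 2205 sites, or 22.0% (exact 95% interval 20.2 to 23.7%), against 1.32% of other distal sites, 5.14% of GC-rich, CpG-poor distal sites and 7.64% of CpG-island-like sites near a TSS. Exons of any kind held 28.3%, against 3.86%. Introns held 37.3%, against 50.7% of other distal sites, and intergenic sequence 34.4%, against 45.4%. The 3′ untranslated regions held 65 sites, the 5′ untranslated regions 32 and other exons 42. The coding sites were the weaker ones: their median scores of 67 and 53 compare with 83 and 69 for intronic and 92 and 77 for intergenic sites. They still exceeded the 57 and 38 of the 1828 other distal sites in coding exons.

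The coding exons concerned were long. Their coding pieces had a median length of 697 bp and 35.1% reached 1000 bp or more, against 177 bp and 12.04% for other distal sites in coding exons. All annotated coding pieces had 124 bp and 1.55%. Each site took the longest coding piece over its midpoint, so a long piece can be counted for several sites. The annotated pieces were each counted once, so only the values of the site classes are like measures. The share in coding exons went with the CpG ratio, at 15.2% for a ratio of 0.6 to 0.7 and 36.5% for 0.9 or more. Tchh, which encodes trichohyalin of the hair follicle, held 8 sites in 1 locus, all in coding sequence, with scores of 43 to 128 in replicate 1 and 32 to 89 in replicate 2. They were all 8 of its distal sites. Mex3b, which encodes an RNA-binding protein, held 4 sites inside 1 hotspot that measured 5882 bp in replicate 1, and 2094 bp in replicate 2, 3 of them in its coding exon, with scores of 67, 90, 72 and 104 in replicate 1 and 55, 65, 49 and 78 in replicate 2. Its hotspot also reached the promoter.

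**Figure D3:**
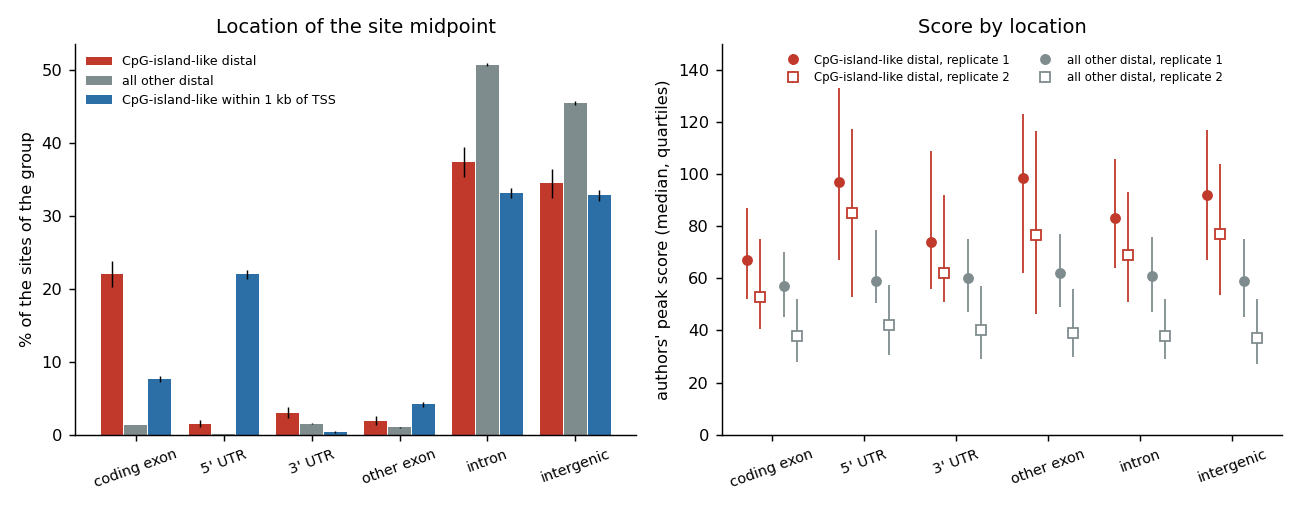
Share of sites by location of the midpoint with exact 95% intervals (left) and authors' peak score by location with median and quartiles (right). The CpG-island-like distal class stands out in coding exons, with 22.0% against 1.32%, and its coding-exon sites, with medians of 67 and 53, have lower scores than its intergenic sites, with 92 and 77.

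The strongest site of the class was 7764 bp upstream of Nr4a1, an immediate-early orphan nuclear receptor, on chromosome 15. It scored 149 in replicate 1 and 137 in replicate 2, in hotspots of 1135 bp and 1102 bp, with 65.2% GC and 45 CpG in its 500 bp window. The printed run holds a GC box, a TFAP2 match and a forkhead match. The site 3079 bp upstream of Igf2bp3, an RNA-binding protein of embryonic growth, scored 145 and 138, with 47 CpG. An intronic site of Creb3l1, a transcription factor of secretory and bone-forming cells, lay 15957 bp from its TSS and scored 147 and 134. A site 14651 bp upstream of Zfp395, which encodes a zinc finger protein, scored 146 and 133, and sites near Mtfp1 and Rabepk scored 145 and 136, and 146 and 134. The other 6 of the 12 highest-ranked sites lay within 1 kb of a TSS in RefSeq or on the promoter's own stretch. They were near Zbtb18, Scd3 (at a RefSeq TSS of Pkd2l1), Midn, Sf3b5, Nfia and Ptma, with scores of 144 to 148 in replicate 1 and 134 to 140 in replicate 2.

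Sites far from any TSS of the basic annotation had scores over a wide range. A site 196381 bp upstream of Eya1, a transcriptional cofactor needed for ear and craniofacial development, scored 116 and 89 in hotspots of 1636 bp and 1753 bp. A pair of sites nearest to Tfap2c, a TFAP2 factor of ectoderm, stood 135916 bp and 135576 bp from the nearest TSS of that annotation and 64440 bp and 64780 bp from one in RefSeq, and scored 95 and 77, and 96 and 59. An intron of Rims1, a protein of the synaptic release zone, held 3 sites within 1 hotspot, and they were weaker, with replicate 1 scores of 67, 67 and 65 and replicate 2 scores of 41, 47 and 46. The site with the greatest distance of all, 268474 bp in the basic annotation, is an intronic site of Sh3gl2 that stands 379 bp from a RefSeq TSS of Adamtsl1, with scores of 81 and 47. The site nearest to Gata6, a factor of heart and endoderm, was 187406 bp away, and 161830 bp from a RefSeq TSS, and scored 62 and 41.

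Among the sites richest in CpG, strength varied widely. Klhl35 had 96 CpG in the 500 bp window, the most of any member, and scored 105 and 89 in its coding exon, 218 bp from a TSS of the comprehensive GENCODE set. The coding-exon site of Dact3, which encodes an antagonist of Wnt signalling, had 89 CpG and scored 49 and 45. A coding-exon site of Snx20 had 88 CpG and scores of 124 and 120. A site 1234 bp from the TSS of the microRNA host gene Mir17hg had 87 CpG and scores of 43 and 46. This last site lay on a CpG-island-like stretch of 2650 bp that continued into a promoter window. The widest replicate 1 hotspot of the class, at 7924 bp, lay at Tnrc18 and measured 3976 bp in replicate 2. Its site had a score of 75 in both. In replicate 1 that hotspot also reached a promoter window.

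The share of peaks also found in the other replicate was higher for the class by a wide margin in replicate 1 and a narrow one in replicate 2. Of replicate 1's distal peaks, 83.7% of the 2707 that met the sequence rule overlapped a replicate 2 peak, against 55.6% of the rest and 55.9% of all. Of replicate 2's, 85.6% of 2647 overlapped a replicate 1 peak, against 83.6% of the rest and 83.6% of all. The difference averaged 15.03 ± 18.5 percentage points (SD, n = 2 replicates), so it is within the spread between replicates, and replicate 1 carries most of it. At matched strength the replicates went opposite ways. Among replicate 1 peaks with scores over 37 and up to 48, 57.1% of the CpG-island-like ones were shared, against 41.5% of the others. Among replicate 2 peaks with scores over 25 and up to 34, 55.6% were shared, against 83.4%.

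The class ranked higher in replicate 2 than in replicate 1. The median rank among distal sites, on a percentile scale, was 88.4 in replicate 2 and 81.4 in replicate 1, and 77.1% of the members had the higher rank in replicate 2, against 47.2% of other distal sites. That share ordered with the CpG ratio over all distal sites above 0.2, at 45.7% for 0.2 to 0.4, 51.8% for 0.4 to 0.6, 67.6% for 0.6 to 0.8 and 82.3% for 0.8 or more, and it was 75.6% to 80.8% in the intergenic, intronic and coding members. The replicates differ in whether instruments are listed, in the number of peaks (304233 and 217980) and in their score scale, and the part of these in the shift was not tested. Ranks within the class were close in the replicates, with a Spearman correlation of 0.93 over the 2205 sites, against 0.78 over other distal sites, given as a description since sites share their libraries. The largest rank difference towards replicate 1 was at a coding-exon site of Foxd4, a forkhead factor. It had scores of 59 and 21 and ranks of 48.2 and 6.88. The largest towards replicate 2, and the larger of the pair, was at an intronic site of Nxnl1, a thioredoxin-like protein of photoreceptors. It had scores of 47 and 79 and ranks of 25.7 and 94.0.

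When each site was assigned to its closest protein-coding TSS, the sites fell to 1506 of 21911 genes, or 6.87%. Of these genes 1054 had 1 site, 310 had 2 and 142 had 3 or more. Which gene a site regulates was not measured. Against that background, genes of the developing face gave 37 of 65 mesenchymal transcription factors (56.9%, exact 95% interval 44.0 to 69.2%) with a site, and 27 of 57 craniofacial signalling genes (47.4%, 34.0 to 61.0%). These genes also have many distal sites of every kind. As a share of a list's distal sites, members were 2.94% of 2176 for the mesenchymal factors and 2.84% of 1512 for signalling, against 1.57% of all distal sites.

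Among the mesenchymal factors Nr2f2, an orphan nuclear receptor, had 5 sites of 92, with scores of 78, 100, 110, 137 and 71 in replicate 1 and 49, 93, 85, 125 and 41 in replicate 2. The highest of them, 1143 bp from the TSS, was high in both and lay on a CpG-island-like stretch that continued into a promoter window. Barx1, a homeobox gene of the jaw, had 3 sites, scoring 66 to 74 and 47 to 66. Among signalling genes Ptch1, the Hedgehog receptor, and Cyp26b1, which degrades retinoic acid, had 4 sites each, with scores of 48 to 116 and 43 to 97, and 53 to 114 and 51 to 107. All 4 sites of Ptch1 lay within 1 kb of a TSS in the comprehensive GENCODE set. Bmp4, a growth factor of the face, had 3, scoring 60 to 71 and 48 to 54.

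The lists of other cell types had a smaller share of genes with a site, but not always a smaller share of distal sites that were members. That share was 5.42% of 332 distal sites for surface and oral epithelium (18 members) and 4.60% of 87 for erythroid cells and macrophages (4 members). It was 3.30% of 333 for neurons (11 members) and 0.833% of 240 for endothelium (2 members). The first 3 of these shares were above the 2.94% of the mesenchymal factors. No interval was computed for these shares, and with so few members their order is uncertain. The surface and oral epithelium list had sites at 9 of 30 genes, led by Klf4, a factor of differentiating epithelium, with 6 sites scoring 60 to 132 and 37 to 103. Cartilage and bone had 8 of 29, led by Col2a1, the main collagen of cartilage, with 3 intronic sites scoring 71 to 84 and 57 to 74. Of these 3 sites, 2 lay within 1 kb of a comprehensive GENCODE TSS. Neurons had 8 of 25, led by Neurog2, a proneural factor all 3 of whose distal sites were members. Skeletal muscle had 5 of 20, glia and melanocytes 4 of 17, endothelium 2 of 16, erythroid cells and macrophages 2 of 18 and housekeeping genes 2 of 20. The lists of hepatocytes and pancreas and of germ cells, tissues outside the face, had 0 of 20 each, with an exact upper bound of 16.8%. With 16 to 30 genes a list, the intervals are wide: that of endothelium runs from 1.55 to 38.3%.

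The list of CpG and Polycomb chromatin genes had 10 of 41 genes but 46 sites, 9.83% of its distal sites. Bcor, a subunit of a Polycomb complex that contains KDM2B, accounts for 22 of them, the most of any gene. They form 14 loci over chrX:11807516-12252645, and 17 of the 22 sites lie in its introns. Their scores were 59 to 121 (median 92) in replicate 1 and 41 to 105 (median 67) in replicate 2. Of these, 5 lay within 1 kb of a RefSeq TSS. Cbx8, which encodes a Polycomb reader of methylated histone H3, had 10 sites of 18, 8 of them intergenic, with scores of 53 to 135 and 37 to 116. Kdm6b, a demethylase that removes the Polycomb histone mark, had 6 sites in 2 loci scoring 65 to 146 and 51 to 122, and all 6 lay within 1 kb of a RefSeq TSS. Hes1, a Notch target, had 6 sites scoring 51 to 129 and 49 to 116, and 4 of them lay within 1 kb of a comprehensive GENCODE TSS.

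Psd2, an exchange factor for small GTPases, was the nearest gene to 10 sites, none of them inside it and 2 inside its neighbour Nrg2. Casz1, a zinc finger factor, had 7, Dhx15, an RNA helicase, and Ebf3, an EBF-family factor, 6 each. The 6 sites given to Dhx15 lie in 1 intergenic locus, 74404 to 77324 bp from its TSS. Their nearest RefSeq TSS was one of Ppargc1a, at 23 to 2291 bp. For Casz1, Dhx15 and Ebf3 alike, 2 of the sites lay within 1 kb of a RefSeq TSS. The 6 sites given to Gm21860 lie in 1 locus of the Y chromosome, where 6 of only 19 distal sites were members; much of the Y chromosome has near-identical copies, so these are uncertain. Imprinted genes, expressed from 1 parental copy, had sites at 10 of 41, led by Impact with 3 intronic sites scoring 126 to 136 and 90 to 118. All 3 lay within 1 kb of a TSS in the comprehensive GENCODE set, and 2 of them within 1 kb of a RefSeq TSS. Grb10, a growth factor receptor adaptor, had 2 intronic sites scoring 66 and 107 in replicate 1 and 64 and 88 in replicate 2. They lay 579 bp and 279 bp from a TSS of the comprehensive GENCODE set. The 39 Hox genes had 5 sites, among only 41 distal sites. That of Hoxa3 scored 88 in replicate 1 and 98 in replicate 2, and that of Hoxa7 92 and 98. The Hoxa3 site lay 494 bp from a RefSeq TSS, and the Hoxa7 site at a TSS of the comprehensive GENCODE set.

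The sequence rule was then applied to the whole genome to ask how much CpG-island-like distal DNA was open. Windows of 500 bp at steps of 50 bp that met the GC and CpG thresholds were merged into 9410 stretches over 1 kb from any TSS, and 21.1% of them (exact 95% interval 20.3 to 22.0%) overlapped a shared site. Of 13706 stretches reaching a promoter window 90.4% did, and of distal 500 bp windows that missed the rule 3.60%. Most stretches are longer than these windows, and the open share was higher for longer stretches. The 2604 distal stretches of 500 to below 600 bp, nearest to the windows in length, had 12.2%. Repeats divide the distal stretches: among the 4962 with at least 50% of their letters soft-masked as repeats in the reference, 0.383% were open, and among the 4448 others 44.2%. Short reads from repeats often map to several places, and the part of mapping in this difference was not tested. No peak or hotspot of either replicate touched 7011 stretches, 74.5% of all distal ones. Absence of a called region does not mean that the DNA was closed.

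Among the stretches under 50% masked, the open share differed with length, location and distance. The open share was 27.9% at 500 to 600 bp, 48.5% at 800 to 1000 bp and 66.8% at 1000 to 1500 bp. It was no higher, at 63.7%, for the 267 of 1500 bp or more. By location the open share was 59.7% for intergenic, 47.1% for intronic and 29.3% for coding-exon stretches. By distance it was 52.2% at 1000 to 2000 bp and 37.9% beyond 50000 bp. The intervals of the coding-exon and intergenic shares, 27.1 to 31.6% and 57.1 to 62.4%, do not overlap. Coding exons held 23.8% of the open stretches under 50% masked, against 48.1% of those without a peak or hotspot. The longest of those without a peak or hotspot is 4350 bp. Outside chromosomes 18, X and Y and away from annotated untranslated regions, the longest, of 3650 bp, is coding sequence of Plec, a cytoskeletal linker. It has 65.9% GC and a ratio of 0.655.

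**Figure D4:**
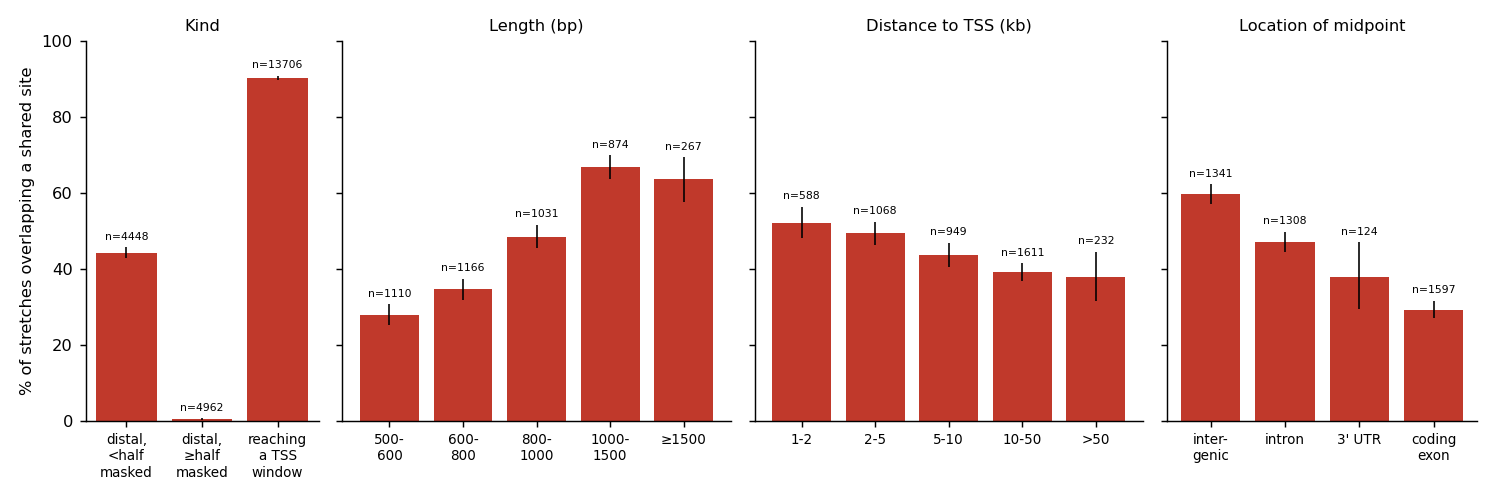
Percentage of CpG-island-like stretches that overlap a shared site, with exact 95% intervals and the number of stretches above each bar, by kind of stretch and, for the distal stretches under 50% masked, by length, distance to the nearest TSS and location. The share is 44.2% for distal stretches under 50% masked and 0.383% for the others, and among the first it is 29.3% in coding exons and 59.7% between genes.

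Consensus strings of 32 motifs were searched on both strands of the central 150 bp. A match is a description of the letters, not evidence of binding. Several strings differed in frequency between the members and other distal sites. The GC box of SP and KLF factors (GGGCGG) was in 45.3%, against 5.49%, the NRF1 string (GCGCNTGCG) in 6.17%, against 0.272%, and the E2F string (TTCCCGCC) in 2.77%, against 0.310%. The ZFP57 string (TGCCGC) was in 17.6%, against 2.85%, TFAP2 (GCCNNNGGC) in 19.1%, against 5.44%, ETS (CCGGAA) in 9.07%, against 2.60%, and CRE (TGACGTCA) in 1.09%, against 0.356%. The CACCC box of KLF factors, at 1.45%, against 1.60%, and the CCAAT box (CCAATC), at 5.26%, against 5.04%, did not differ beyond the members' intervals. Many of these strings contain CpG or are GC-rich, so their frequency is not independent of the rule. The members were then set beside the centres of the 2089 distal stretches under 50% masked without a peak or hotspot. The composition is not alike: the members had a median GC content of 63.4% and CpG ratio of 0.745, against 56.6% and 0.616 for these stretches, and the part of composition in the differences was not tested. The GC box was in 45.3% of the members, against 14.98% of these centres, and NRF1 in 6.17%, against 2.39%. E2F was in 2.77%, against 0.670%, ZFP57 in 17.6%, against 9.72%, CRE in 1.09%, against 0.383%, and the CCAAT box in 5.26%, against 2.49%. The CACCC box was in 1.45%, against 3.97%. Against all 7011 stretches without a peak or hotspot, masked ones included, the CCAAT box was scarcer in the members, at 5.26%, against 18.01%, as was ETS, at 9.07%, against 15.3%.

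Several strings that are frequent in other distal sites were scarcer in the members. The TWIST-type E-box (CATCTG) was in 6.62%, against 18.9% of other distal sites, the NFI string (TTGGCA) in 4.85%, against 18.1%, RUNX (TGTGGT) in 3.95%, against 13.7%, TEAD (GGAATG) in 5.99%, against 12.7%, AP-1 (TGANTCA) in 1.90%, against 6.66%, homeobox (TAATTA) in 1.45%, against 4.23%, and the CTCF string in 1.59%, against 4.10%. None of these spelled strings contains CpG, and the part of base composition in the difference was not tested. In CpG-island-like sites near a TSS the TWIST-type E-box was in 4.26%, NFI in 4.31% and RUNX in 3.63%. In GC-rich, CpG-poor distal sites they were in 16.2%, 13.2% and 10.6%. CTCF was not found in any of the 2089 stretches under 50% masked without a peak or hotspot, and was in 0.407% of CpG-island-like sites near a TSS. Among the 32 strings, 14 had a higher share in the members than in other distal sites by any margin, and 11 of these were also higher than in all stretches without a peak or hotspot. The 14 include the CCAAT box, EBF and RFX, for which the share of other distal sites (5.04%, 4.58% and 0.615%) lay within the members' interval.

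Strength differed by motif within the class. The 116 sites with a CCAAT box had median scores of 119.5 and 102, against 82 and 66 for the 2089 without, and the 24 with a CRE had 114.5 and 99.5, against 82 and 67. The 998 with a GC box had 90 and 76, against 78 and 62, and the 61 with an E2F string 94 and 76, against 82 and 67. For TFAP2, with 421 sites, the medians were 82 and 69, against 82 and 67, and for ZFP57, with 388 sites, 78.5 and 66, against 83 and 68. The 24 with a forkhead string had 103.5 and 83.5, against 82 and 67. For AP-1, with 42 sites, the medians were 100.5 and 75, against 82 and 68. The 146 with a TWIST-type E-box had lower medians, 75 and 61, against 83 and 69. The CCAAT and CRE strings are known from promoters, and whether that bears on these scores was not tested. CCAAT was in 11.7% of the CpG-island-like sites near a TSS, against 5.26% of the distal ones.

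**Figure D5:**
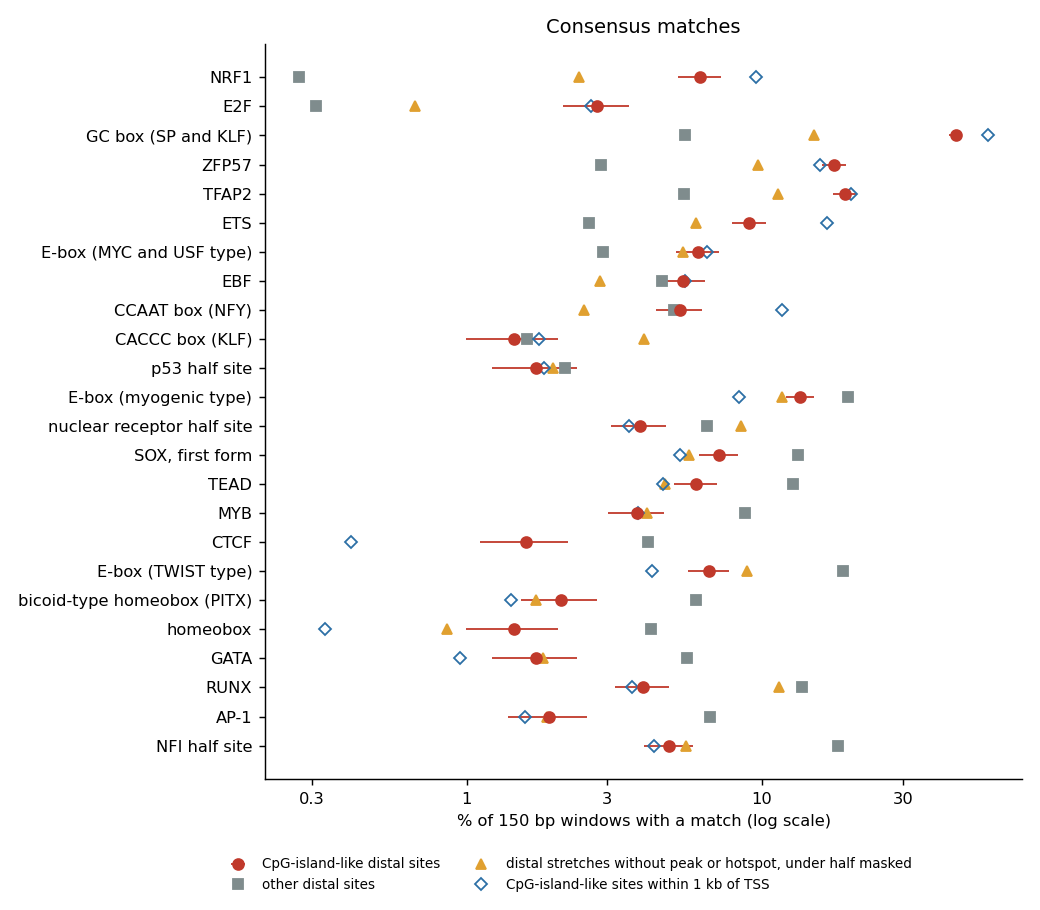
Percentage of 150 bp windows with a match to each consensus, on a log scale, for the strings found in 30 or more of the CpG-island-like distal sites, ordered by the ratio of that class to other distal sites; bars are exact 95% intervals and no symbol is drawn for 0%. The NRF1, E2F, GC box and ZFP57 strings lie far to the right of the other distal sites, and the AP-1, RUNX and NFI strings to their left.

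By chromosome, the members made up 1.02% of the distal sites of chromosome 3 and 2.68% of those of chromosome 11, the extremes outside the Y chromosome. Chromosome 11 had 1.91 sites per Mb, against 0.809 over the genome, and chromosome 7 had 1.299. On the X chromosome 22 of the 67 members are those of Bcor.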

How the data were processed

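DNase-seq peaks and hotspots of 2 biological replicates were used as the authors deposited them, in mm10 coordinates; the description deposited with the lists says that each replicate was processed on its own. The aligner and caller were not given in the sources used here, and depth is unknown. The deposited peak score is the authors' own, a whole number up to 150 with no stated normalization, and was used to describe and rank sites within a replicate. The deposited hotspot value is a −log10 q-value from 1.30 to 100 in the authors' file format. Only replicate 1's labels list sequencing instruments.

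Peaks on chromosomes 1 to 19, X and Y were kept, once each (304233 and 217980). A site took the highest score of its peaks in each replicate. Composition and repeat masking came from the GRCm38.p6 sequence of RefSeq, whose coordinates are those of mm10, and start sites and locations from GENCODE M21. Distances run from the edge of a site. Python 3.11.15 with pandas 2.3.3 and scipy 1.17.1 was used, and the interval, composition and motif functions were tested on simulated data. Intervals are exact (Clopper-Pearson, 95%) and cover counting error only.

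The members, the 15 gene lists (453 symbols, 1 not matched) and the motifs were chosen with earlier results of these data known. Sites and genes named are the 12 of highest mean score rank, the 8 farthest from a TSS, the 6 in the widest hotspots, the 6 with most CpG, those at the thresholds, those with the largest rank differences, the 10 genes with most sites and the first 3 of each list; some of these are not reported here. Alternatives changed the thresholds, window, TSS distance and set, peak strength, overlap and replicates.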

Additional observations from a re-analysis of the deposited data

How the results depend on the processing

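The score difference between CpG-island-like and other distal sites, 26.5, was 22.5 to 29.0 under 11 of 12 alternatives and 18.5 with only peaks at or above the median score of their list; it was positive under all 12. The reproducibility difference, an average with an SD of 18.5 over the replicates, ran from 12.4 to 16.7 percentage points and the motif count from 9 to 13. The count of sites, 2205, was 1074 with a CpG ratio of at least 0.75, 3471 with a window of 200 bp, 3850 at over 500 bp from a TSS and 996 at over 5000 bp. The genes with a site, 1506, numbered 841, 2337, 2621 and 722 under the same settings.

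The share in an exon of any kind, 28.3%, was 24.97% at a GC content of at least 50%, 31.9% at 60%, 34.8% with the CpG ratio of 0.75, 23.5% and 31.5% with windows of 200 bp and 1000 bp, 20.1% at over 5000 bp from a TSS, 33.4% with RefSeq start sites added, 25.3% with stronger peaks, and 30.5 to 31.0% without 1 replicate. The open share of distal stretches, 21.1%, moved under most settings. It was 12.97% and 24.1% at the GC thresholds of 50% and 60%, 37.0% at the CpG ratio of 0.75, 11.7% and 32.1% with windows of 200 bp and 1000 bp, 22.8% and 15.5% at over 500 bp and over 5000 bp, 17.7% with RefSeq start sites, 18.2% with stronger peaks, 20.3% with an overlap of at least 50% and 22.5 to 23.9% without 1 replicate. Restricted to stretches under 50% masked, an alternative chosen after seeing the data, it was 44.2%, and the motif count was then 13. The cause of these moves was not tested. No reproducibility value exists with 1 replicate. No paired analysis was possible because there is only 1 group. Depth is unknown, so weak sites may be uncalled in either replicate.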
